A study of Danio rerio with 9 samples.

Results

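The 115 genes described here are gene models that entered the zebrafish annotation under high Ensembl numbers, at or above ENSDARG00000084000. In deposited values of labelled RNA, 1 per stage, each was already above its 128-cell level at the 256-cell stage. The genes were chosen from these per-stage values, given as FPKM. FPKM is a count of sequenced fragments corrected for the length of the transcript and the size of the library. A member had at least 5 FPKM at the 512-cell stage, at least a 16-fold rise over the 128-cell stage with 0.1 FPKM added to both values, and a 256-cell value of at least 0.2 of the 512-cell value. These 115 are 1.22% of the 9436 genes in that table and 9.13% of its 1259 recent gene models. The zinc-finger genes znf1089, znf1127 and drll.3 met the same thresholds and were left out by name. All 115 members stand in the table of FPKM per library, which lists 8969 genes.

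In zebrafish, the first cell divisions run on RNA that the mother stored in the egg, and the embryo's own genome is switched on in steps during the cleavage and blastula stages. A uridine analogue carrying sulphur that is supplied to the embryo is built into RNA made afterwards, so newly made RNA can be tagged with biotin and pulled away from the stored RNA. Ensembl numbers genes as they are added, so a high number marks a model that was annotated late, which often has no gene symbol.

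The study sequenced 9 libraries, all made from whole embryos of the AB strain with a wild-type genotype. Labelled RNA, from embryos that received 4-thio-UTP (50 mM, 1 nl) by injection as 1 cell, is held by 6 libraries, 2 for each stage (128-cell, 256-cell and 512-cell). The labels call them technical replicates, so differences between them, and p-values resting on them, measure technical spread. Unlabelled RNA has 1 library at each of the same stages; its RNA went through the same biotin and streptavidin steps, and the injection protocol is given for every sample without saying whether these embryos were mock-injected. How many embryos were pooled is not given in the sources used here.

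The libraries had between 4035 and 7416 genes at 1 FPKM or more, and their read depth is unknown because no counts were used. Genes of the mitochondrial genome held 12.8% to 42.7% of all FPKM in the labelled libraries, against 0.367% to 0.456% in the unlabelled libraries; the part of this difference in the results below was not tested. In whole embryos, fewer cells that make an RNA and less of it per cell cannot be told apart. Of 15 genes of differentiated tissue, 1 (actc1a) was high enough to be tested. Its labelled to unlabelled difference did not pass.

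Few of the members carry a name. Of the 115, 16 (13.9%) have a symbol, 8 of them ordinary gene symbols and 8 clone-based ones. Among the other recent gene models of the per-stage table, 535 of 1091 (49.0%) have a symbol. Of the 50 recent gene models that met the level and the rise but had a 256-cell value under 0.2 of the 512-cell value, 12 (24.0%) have one. Of 67 early-onset genes with lower Ensembl numbers, 50 (74.6%) have one.

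The members fell into a high and a lower set, a split made after the values were seen. The high set has 54 members with per-stage values of 8808 FPKM or more at the 512-cell stage, and the lower set has 61 members with 693 FPKM or less, a gap of 12.7-fold. No high member has a symbol, and all 54 IDs lie between ENSDARG00000086081 and ENSDARG00000091855. Many of them repeat the same values. Grouping IDs that differed by at most 1.0% in each of the 9 libraries left 14 families, of which 11 have more than 1 ID and together hold 51 of the 54. The largest family has 16 IDs under ENSDARG00000086582 and the next has 9 IDs under ENSDARG00000086081; a family is named here by its lowest ID. The 61 lower members all had values of their own.

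In the table of 8969 genes, 94 IDs had values identical to those of another ID in all 9 libraries, and 45 of these (47.9%) were members. Where copies are alike, these values cannot show which copy a read came from. The 54 high IDs are therefore not 54 separate measurements, and results are also given over the 14 families or the 85 distinct sets of values that the 115 members hold.

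**Figure D1:**
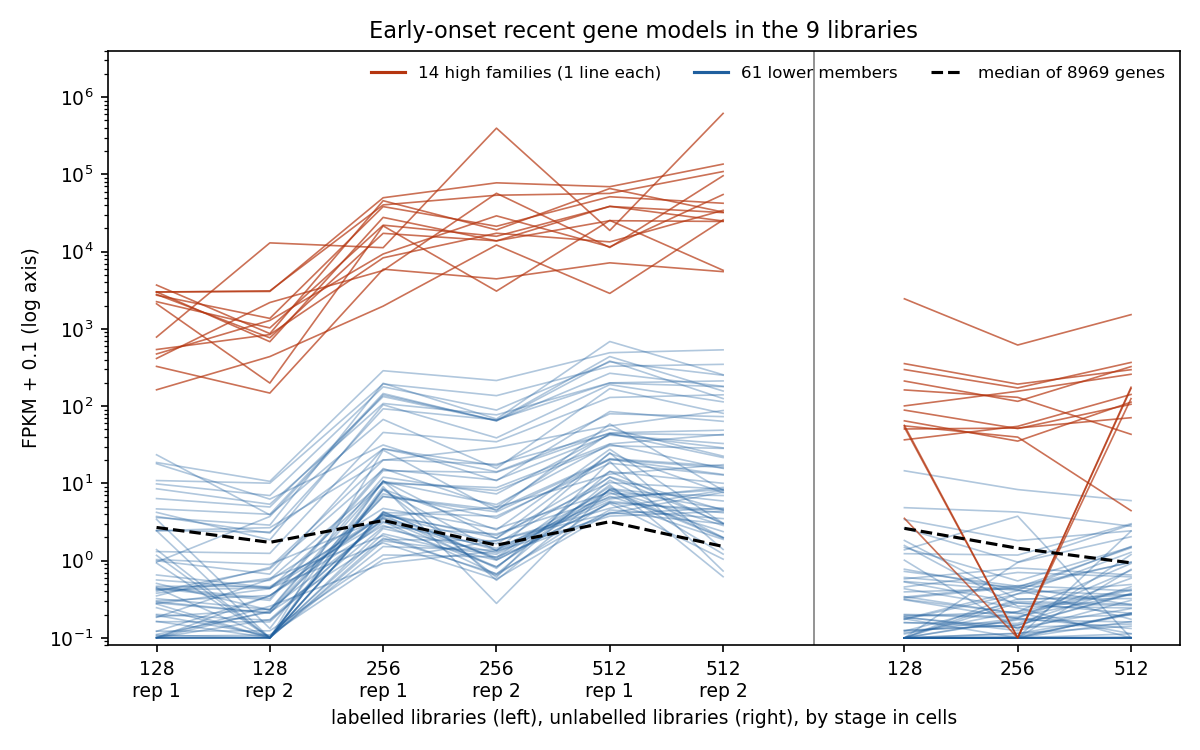
FPKM + 0.1 (log axis) of the 14 high families (red, 1 line each) and the 61 lower members (blue) in the 6 labelled libraries on the left and the 3 unlabelled libraries on the right, with the median of 8969 genes as a dashed line. The red lines lie between 148 and 617839 FPKM in labelled RNA, and above the blue lines within each labelled library; in unlabelled 256-cell RNA 3 of them are listed at 0.

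The family with the highest per-stage value at the 512-cell stage was ENSDARG00000086235, with 4502, 159803 and 213786 FPKM at the 128-cell, 256-cell and 512-cell stages. In the single labelled libraries its FPKM was 784 and 13009 at 128-cell, 11279 and 397915 at 256-cell, and at 512-cell 18838 and 617839. In unlabelled RNA it was 2456, 619 and 1531. The value of replicate 2 was far above that of replicate 1 at every stage, and at 128-cell replicate 1 lay below the unlabelled library, which happened in no other family.

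The next families had closer replicates. ENSDARG00000086482, with 3 IDs, had 3010 and 3057 FPKM in labelled RNA at 128-cell, 49967 and 77954 at 256-cell and 69455 and 136272 at 512-cell, against 355, 193 and 296 FPKM in unlabelled RNA. ENSDARG00000089163, with 5 IDs, had 3007 and 3112 FPKM at 128-cell, 40366 and 53866 at 256-cell and 56867 and 109178 at 512-cell, against 298, 172 and 368 FPKM in unlabelled RNA. In both, each labelled library stood above the unlabelled one of its stage from the 128-cell stage on. ENSDARG00000086968, with 5 IDs, had 3701 and 870 FPKM at 128-cell, 45739 and 19181 at 256-cell and 65802 and 32606 at 512-cell, against 50.5, 52.0 and 70.8 FPKM in unlabelled RNA. Here replicate 1 was the higher one throughout.

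ENSDARG00000086582, the family of 16 IDs, had 414 and 2198 FPKM in labelled RNA at 128-cell, 5715 and 57095 at 256-cell, then 11329 and 96288 at 512-cell. In unlabelled RNA it had 211, 115 and 325 FPKM. Its 256-cell value was 0.646 of the 512-cell value in the per-stage table, which with the 0.747 of ENSDARG00000086235 was among the highest such ratios of the members. The per-stage ratio of the families ran from 0.441 (ENSDARG00000086436) upward, so in each family the 256-cell value was already over 0.4 of the 512-cell value. In the lower members the ratio had a median of 0.242 and reached at most 0.487.

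Some families were near or at 0 without label. ENSDARG00000086436 had 2255 and 1030 FPKM in labelled RNA at 128-cell and 22064 and 15837 at 256-cell, and was listed at 0 in unlabelled 256-cell RNA, between 53.1 FPKM at 128-cell and 176 FPKM at 512-cell. ENSDARG00000087609 was listed at 0 in the same library, with 56.3 and 125 FPKM in the unlabelled libraries of the other stages. ENSDARG00000086116, a single ID and the lowest of the 14 at 512-cell, had 327 and 148 FPKM in labelled RNA at 128-cell, 5939 and 4451 at 256-cell and 7176 and 5516 at 512-cell, against 3.43, 0 and 169 FPKM in unlabelled RNA. ENSDARG00000087281, also a single ID, went the other way without label, with 55.5, 39.7 and 4.34 FPKM in stage order, beside 25449 and 5747 FPKM in labelled 512-cell RNA.

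The remaining 5 families had labelled 512-cell values between 2885 FPKM (replicate 1 of ENSDARG00000091671) and 55022 FPKM (replicate 2 of ENSDARG00000086779), with unlabelled values from 35.2 to 259 FPKM. These are ENSDARG00000088093, ENSDARG00000086779, ENSDARG00000086081, ENSDARG00000088487 and, with 1 ID, ENSDARG00000091671. The family of 9 IDs under ENSDARG00000086081 had 2803 and 768 FPKM in labelled RNA at 128-cell and 25224 and 24636 at 512-cell, against 162, 130 and 43.1 FPKM in unlabelled RNA in stage order.

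On the deposited scale, the technical replicates of the high families disagreed in a fixed way. In each of the 14 families the same replicate was the higher one at all 3 stages, replicate 1 in 7 families and replicate 2 in the other 7. The ratio of replicate 1 to replicate 2 ran from 0.0603 to 10.6 at 128-cell, from 0.0283 to 7.0 at 256-cell and from 0.0305 to 4.43 at 512-cell. Over all genes its median was 1.61, 2.14 and 2.17 in stage order. With each library divided by its median-of-ratios size factor, replicate 1 was higher in 7 families at 128-cell, 2 at 256-cell and 1 at 512-cell. The even split and the fixed direction therefore hold for the deposited scale only. In ENSDARG00000086081, for example, the ratio with size factors was 2.27, 0.592 and 0.482 in stage order. What differs between the replicates is not given in the labels, and its part in these ratios was not tested.

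**Figure D2:**
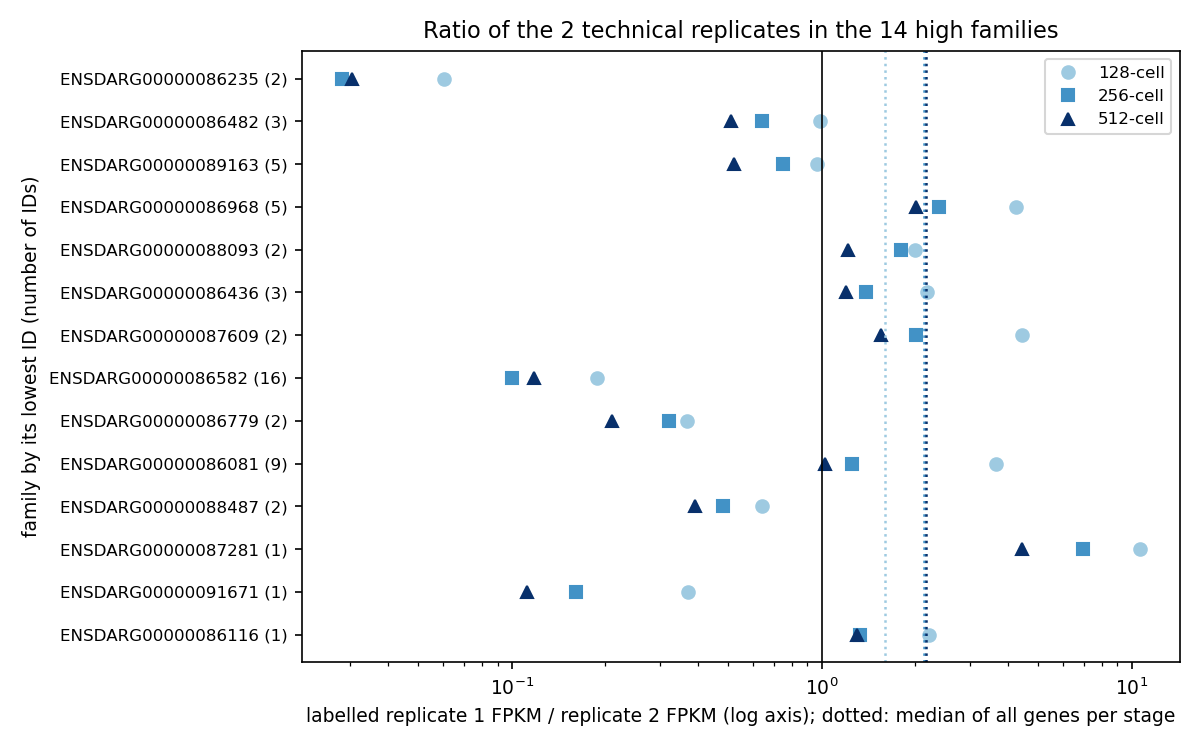
Ratio of labelled replicate 1 to replicate 2 FPKM (log axis) in the 14 high families at the 128-cell (circles), 256-cell (squares) and 512-cell stage (triangles), with the number of IDs of each family in brackets and the median ratio of all genes at each stage as dotted lines. On the deposited scale shown, the 3 points of a family lie on the same side of equality (black line) in all 14, 7 on each side. ENSDARG00000086235 lies at 0.0603, 0.0283 and 0.0305.

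Both replicates nonetheless showed the families rising with stage. In replicate 1 their 512-cell value was 9.0 to 27.3 times the 128-cell value, with a median of 18.9, and in replicate 2 it was 28.9 to 58.9 times, with a median of 37.4. The fold was larger in replicate 2 in 14 of 14 families. The 256-cell value was a median of 0.702 of the 512-cell value in replicate 1 and 0.545 in replicate 2. The per-stage table used for the choice draws on labelled RNA of the same stages, so the rise is given without a test. How it scales the stages is not given in the sources used here: its value lay above both labelled libraries in 6 of 115 members at 128-cell, 13 at 256-cell and 69 at 512-cell.

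The 54 high IDs took up a large part of the deposited FPKM. In the labelled libraries their share of all FPKM was 4.01% and 2.90% at 128-cell, 33.9% and 46.4% at 256-cell, and at 512-cell 48.0% and 69.9%. In unlabelled libraries it was 0.370%, 0.262% and 0.761%. Another 943 recent gene models, outside the members and those with a ratio under 0.2, held 94.4%, 95.8% and 95.7% there. In labelled RNA these 943 held 10.5% and 44.4% at 128-cell, 5.76% and 31.4% at 256-cell and 3.87% and 13.2% at 512-cell. The part of this imbalance in the shares of the high IDs was not tested. With each distinct value of the high IDs counted once per library, the shares at 512-cell were 17.7% and 27.0% in labelled RNA and 0.206% in unlabelled RNA. The total in these shares still counted every repeated ID, so with repeats taken out of it too the shares would be larger. A family whose IDs differ slightly still counts more than once in these labelled shares. FPKM rises as transcript length falls and repeated IDs count each time in the first set of shares, so none of these is a share of reads.

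The 61 lower members lay below the high set in each labelled library. Their median FPKM in labelled RNA was 0.317 and 0.222 at 128-cell, 8.11 and 2.49 at 256-cell and at 512-cell 20.2 and 8.77. In unlabelled RNA it was 0.0757, 0.105 and 0.223. Over all genes the median in labelled RNA was 2.59 and 1.62 at 128-cell, 3.21 and 1.49 at 256-cell and 3.10 and 1.42 at 512-cell. Of the 61, 5 were listed at 0 in both labelled 128-cell libraries and 10 in 1 of them, and 46 stayed under 1 FPKM in all 3 unlabelled libraries. Replicate 1 was above replicate 2 in 47 of 61 at 512-cell, where 92.6% of all genes showed this order. The median ratio of replicate 1 to replicate 2 at that stage was 1.45 over all 61 and 2.17 over all genes. Among the 61, 15 had replicates over 3-fold apart there.

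The leading lower members have no symbol. ENSDARG00000091098 had 18.6 and 10.5 FPKM in labelled RNA at 128-cell, 288 and 215 at 256-cell and 492 and 536 at 512-cell, against 2.53, 0.856 and 2.82 FPKM in unlabelled RNA. ENSDARG00000087412 had 10.8 and 9.96 FPKM at 128-cell, 194 and 137 at 256-cell and 328 and 348 at 512-cell, against 0.913, 0.0299 and 1.10 FPKM in unlabelled RNA. In these genes the replicates lay close together and each labelled library was above the unlabelled ones. ENSDARG00000086478 had 3.51 and 2.78 FPKM at 128-cell, 198 and 68.1 at 256-cell and 687 and 255 at 512-cell, against values near 0, 0.848 and 1.94 FPKM in unlabelled RNA. ENSDARG00000092100 was listed at 0 in the unlabelled 128-cell and 256-cell libraries and at 2.31 FPKM at 512-cell, beside 439 and 157 FPKM in labelled 512-cell RNA.

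ENSDARG00000088946, ENSDARG00000094945, ENSDARG00000087183 and ENSDARG00000091017 had between 125 and 384 FPKM in labelled 512-cell RNA and between 0.311 and 3.31 FPKM in unlabelled RNA. Among the lower members 15 reached 1 FPKM in an unlabelled library. ENSDARG00000091446 had the highest unlabelled values of these, with 14.5, 8.22 and 5.88 FPKM in stage order, beside 17.9 and 6.15 FPKM in labelled RNA at 128-cell, 31.3 and 10.7 at 256-cell and 85.0 and 63.5 at 512-cell. At 128-cell its labelled and unlabelled values overlapped. ENSDARG00000090893 had 23.4 and 3.81 FPKM in labelled RNA at 128-cell and 169 and 80.7 at 512-cell, against 4.75, 4.16 and 2.68 FPKM in unlabelled RNA.

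Others that reached 1 FPKM without label were ENSDARG00000091502, at 1.18 FPKM in unlabelled 512-cell RNA beside 79.6 and 73.1 FPKM in labelled 512-cell RNA, and ENSDARG00000095677, at 1.47 FPKM in unlabelled 128-cell RNA beside 0.351 and 0.222 FPKM in labelled 128-cell RNA. ENSDARG00000089437 had 1.72 FPKM in unlabelled 128-cell RNA, between the labelled 3.32 and 0.0322 FPKM. ENSDARG00000087472 had 1.29 and 0 FPKM in labelled RNA at 128-cell, 10.7 and 0.456 at 256-cell and 8.28 and 4.56 at 512-cell, against 1.38, 0.446 and 1.40 FPKM in unlabelled RNA. For this last gene both labelled values were below the unlabelled one at 128-cell, and at 256-cell replicate 1 stood far above replicate 2, which was near the unlabelled value.

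The 3 thresholds were also read in each replicate alone, as a description of how the choice rests on the libraries. In replicate 1 alone 90 of 115 members met them, where 2.51% of all genes did. In replicate 2 alone 85 of 115 did, where 1.64% of all genes did. The high members met them in 42 and 54 of 54 and the lower ones in 48 and 31 of 61. The FPKM rose at each stage in 113 of 115 members in replicate 1, where it did in 26.6% of all genes, and in 113 of 115 in replicate 2, where it did in 15.8%.

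The members nearest the thresholds lay close to genes just outside them. At the level of 5 FPKM the nearest members were hnrnpa0a (5.23 FPKM), ENSDARG00000086289 (5.26) and ENSDARG00000093110 (5.55), and the nearest recent models outside were pimr201 (4.76), ENSDARG00000089210 (4.73) and si:ch211-222h17.9 (4.55). At the 16-fold rise the nearest members were hnrnpa0a (16.1), ENSDARG00000091446 (16.4) and ENSDARG00000094076 (17.1), against nfe2l2b (13.6), ENSDARG00000089073 (11.9) and ENSDARG00000090569 (11.7) outside. At the ratio of 0.2 the nearest members were ENSDARG00000086478 (0.204), WEE1 (0.204) and ENSDARG00000091446 (0.206), against ENSDARG00000095554 (0.1996), ENSDARG00000091176 (0.197) and ENSDARG00000089822 (0.193) outside.

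Of the 16 members with a symbol, 8 are clone-based. ENSDARG00000095745, whose symbol stands at the top of the plot of these 16, was the highest, with 3.63 and 2.17 FPKM in labelled RNA at 128-cell, 92.3 and 66.3 at 256-cell and 199 and 179 at 512-cell, against 0.625, 0.367 and 0.849 FPKM in unlabelled RNA. si:rp71-45k5.2 had 2.35 and 2.57 FPKM at 128-cell, 20.1 and 17.6 at 256-cell and 44.1 and 42.2 at 512-cell, against 0.242, 0.105 and 0.314 FPKM in unlabelled RNA. Both had replicates in close agreement and labelled values above unlabelled ones at each stage. The other 6 clone-based members had between 0.945 and 58.7 FPKM in labelled 512-cell RNA and under 1 FPKM in each unlabelled library. Among them si:ch211-279m15.1 and si:dkey-18j14.4 were listed at 0 in all 3 unlabelled libraries.

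Regulators of transcription among the ordinary symbols were FOXB1 and CREBZF. FOXB1 (ENSDARG00000089042), a forkhead transcription factor of the early nervous system, had 0.0635 and 0 FPKM in labelled RNA at 128-cell, 3.98 and 1.86 at 256-cell and 14.1 and 9.93 at 512-cell, against 0.0766, 0 and 0.0128 FPKM in unlabelled RNA. It was at background at 128-cell and above it in both libraries of each later stage. CREBZF (ENSDARG00000089787), a basic leucine zipper protein that acts as a transcriptional cofactor in mammals, had 0.552 and 0.347 FPKM at 128-cell, 3.86 and 0.695 at 256-cell and 14.2 and 2.87 at 512-cell, against 0.332, 0.146 and 0 FPKM in unlabelled RNA. Replicate 1 was well above replicate 2 from the 256-cell stage on. A further ID that carries the symbol FOXB1 was not analysed here.

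Members tied to signalling and the cell cycle were NRARP, efs and WEE1. NRARP (ENSDARG00000091419), an ankyrin-repeat protein that limits Notch signalling, had 0.462 and 0.336 FPKM in labelled RNA at 128-cell, 3.13 and 0.565 at 256-cell and 10.9 and 1.89 at 512-cell, against 0.430, 0.183 and 0.162 FPKM in unlabelled RNA. efs (ENSDARG00000088835), an adaptor protein of the Cas family that binds Src-family kinases in mammals, had 0.0619 and 0.0608 FPKM at 128-cell, 3.53 and 1.26 at 256-cell and 8.03 and 2.75 at 512-cell, against 0.0581, 0.0366 and 0.0509 FPKM in unlabelled RNA. Both were close to their unlabelled value at 128-cell and above it at 256-cell and 512-cell. WEE1 (ENSDARG00000093864), a kinase that holds cells back from mitosis, had 0.932 and 0.792 FPKM at 128-cell, 3.45 and 0.996 at 256-cell and 12.1 and 4.41 at 512-cell, against 0.480, 0.704 and 0.552 FPKM in unlabelled RNA. Its labelled values were above the unlabelled ones at each stage, by little at 128-cell.

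Members that act on or as RNA, and a metabolic enzyme, complete the ordinary symbols. gas5 (ENSDARG00000092337), in mammals a non-coding host gene of small nucleolar RNAs, had 0 and 0.253 FPKM in labelled RNA at 128-cell, 3.87 and 1.55 at 256-cell and 12 and 2.96 at 512-cell, and was listed at 0 in all 3 unlabelled libraries. hnrnpa0a (ENSDARG00000089302), an RNA-binding protein of the hnRNP A family, had 0.317 and 0.341 FPKM at 128-cell, 1.60 and 0.476 at 256-cell and 4.12 and 2.89 at 512-cell, against 0.674, 0.320 and 0.0741 FPKM in unlabelled RNA; at 128-cell both labelled values were the lower ones. acyp2 (ENSDARG00000086271), an acylphosphatase, was listed at 0 in both labelled 128-cell libraries and had 8.11 and 1.24 FPKM at 256-cell and 24.8 and 1.29 at 512-cell, against 1.28, 3.66 and 0 FPKM in unlabelled RNA. For acyp2 the labelled and unlabelled values overlapped, and its rise rests mainly on replicate 1.

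**Figure D3:**
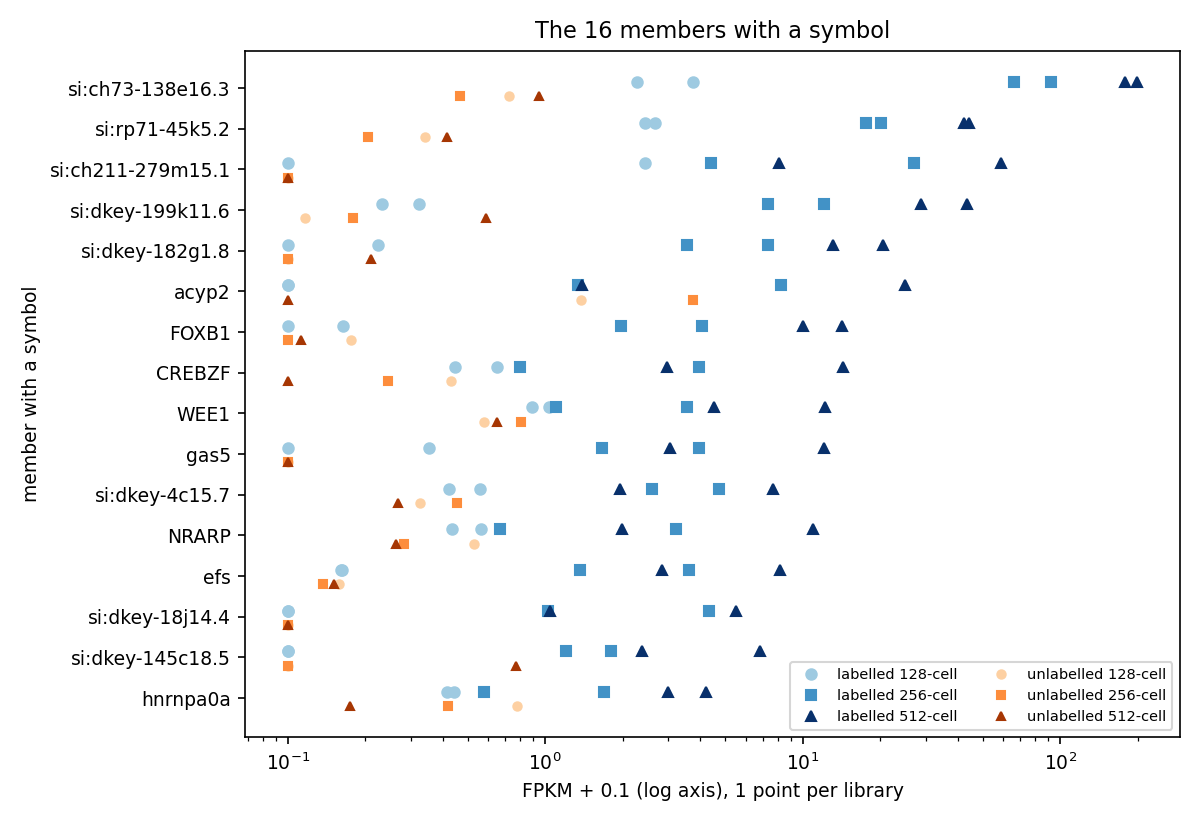
FPKM + 0.1 (log axis) of the 16 members with a symbol, with labelled libraries in blue and unlabelled ones in orange, 1 point per library, and circles, squares and triangles for the 128-cell, 256-cell and 512-cell stages. In 15 of the 16 both labelled 512-cell points lie to the right of all 3 unlabelled points, and acyp2 is the exception. The same holds in 114 of all 115 members. Members were chosen by labelled 512-cell values, so this order is partly set by the choice.

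The next comparison asks which members were higher in labelled than in unlabelled RNA. The unlabelled libraries played no part in the choice of members, but the labelled ones did, so counts of members called here lean towards being high and are read as a description beside the share of all genes. The tests used limma on log2(FPKM + 1) with Benjamini-Hochberg adjustment over 7697 tested genes and a threshold of 0.05. All 115 members passed the filter on low values, which asked for 1 FPKM or more in 2 libraries. Of the 61 lower members, 46 were under 1 FPKM in all 3 unlabelled libraries. These passed the filter through labelled RNA alone, the RNA they were chosen by, so their calls are partly set by the choice. Log2 values below are differences of labelled minus unlabelled RNA, from which the median over the 7697 genes was subtracted. That median was 0.33 over the 3 stages, -0.18 at 128-cell, 0.43 at 256-cell and 0.73 at 512-cell. The pseudocount of 1 shrinks the difference of low genes. Tests at a single stage set 2 technical replicates against 1 unlabelled library, which the fit takes to vary like them, so their SEs and calls cover technical spread only and compare these libraries.

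Over the 3 stages, labelled RNA was higher than unlabelled RNA in 110 of the 115 members, where limma called 11.9% of all tested genes higher (adjusted p under 0.05). The 110 include all 54 high members, that is 14 of 14 families, and 56 of 61 lower members. Counted by distinct values, 80 of 85 sets passed. The median log2 difference of the members was 4.49 above that of all genes, 6.06 in the high members and 1.51 in the lower ones. For the families it ran from 4.10 (ENSDARG00000086235) to 8.63 (ENSDARG00000087609). The members that did not pass were ENSDARG00000091446, ENSDARG00000087472, ENSDARG00000093110, hnrnpa0a and acyp2.

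This fit compared 3 labelled stage values, each the mean of 2 technical replicates, with 3 unlabelled libraries, with stage as a block. The 3 stages thus served as replicates of 1 label difference, taken to be the same at each stage. The members were chosen for a rise over the stages in labelled RNA, which departs from that. The families' median log2 difference was 3.45 at 128-cell, 7.53 at 256-cell and 6.97 at 512-cell. The p-values of this fit rest on the spread pooled over all genes, because the moderation took no weight from a gene's own spread. With size factors in place of the deposited scale 53 of 115 members passed, where 6.15% of all tested genes did, among them 10 of the 14 families; the median log2 difference of the families was then 5.97, against 6.17 on the deposited scale. Without labelled 128-cell replicate 2 the count was 55, where 11.5% of all tested genes passed, with 12 of the 14 families. In both of these alternatives, unlike the main fit, a gene's own spread did carry weight. The part of this in the lower counts was not tested.

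The lower members with a symbol spanned a wide range in this comparison. ENSDARG00000095745 was higher by a log2 of 4.27 ± 0.46 (SE; 3 labelled and 3 unlabelled stage values; limma adjusted p = 5.83e-21) and si:rp71-45k5.2 by 3.25 ± 0.39 (limma adjusted p = 4.11e-18). FOXB1 was higher by 1.51 ± 0.33 (limma adjusted p = 1.17e-06, and 0.139 at most over the alternatives tried). CREBZF was higher by 1.14 ± 0.33 (limma adjusted p = 0.00027), efs by 1.04 ± 0.33 (limma adjusted p = 0.000855), WEE1 by 0.87 ± 0.34 (limma adjusted p = 0.00596) and NRARP by 0.81 ± 0.33 (limma adjusted p = 0.00829). Over the alternatives tried the limma adjusted p reached 0.165 for ENSDARG00000095745, 0.0448 for si:rp71-45k5.2, 0.139 for CREBZF, 0.127 for efs, 0.126 for WEE1 and 0.155 for NRARP. hnrnpa0a was at 0.44 ± 0.33 (limma adjusted p = 0.117) and acyp2 at 0.25 ± 0.34 (limma adjusted p = 0.305). gas5, with unlabelled values listed at 0, had a limma adjusted p = 4.02e-05, and 0.105 at most over the alternatives. In all, 14 of the 16 members with a symbol passed, where 11.9% of all tested genes did. Of the 16, 15 were under 1 FPKM in all 3 unlabelled libraries and so passed the filter through labelled RNA alone. That is the RNA they were chosen by, so their calls and p-values are partly set by the choice. With size factors 1 of the 16 passed (si:rp71-45k5.2), and 3 of the 16 did when labelled 128-cell replicate 2 was left out.

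**Figure D4:**
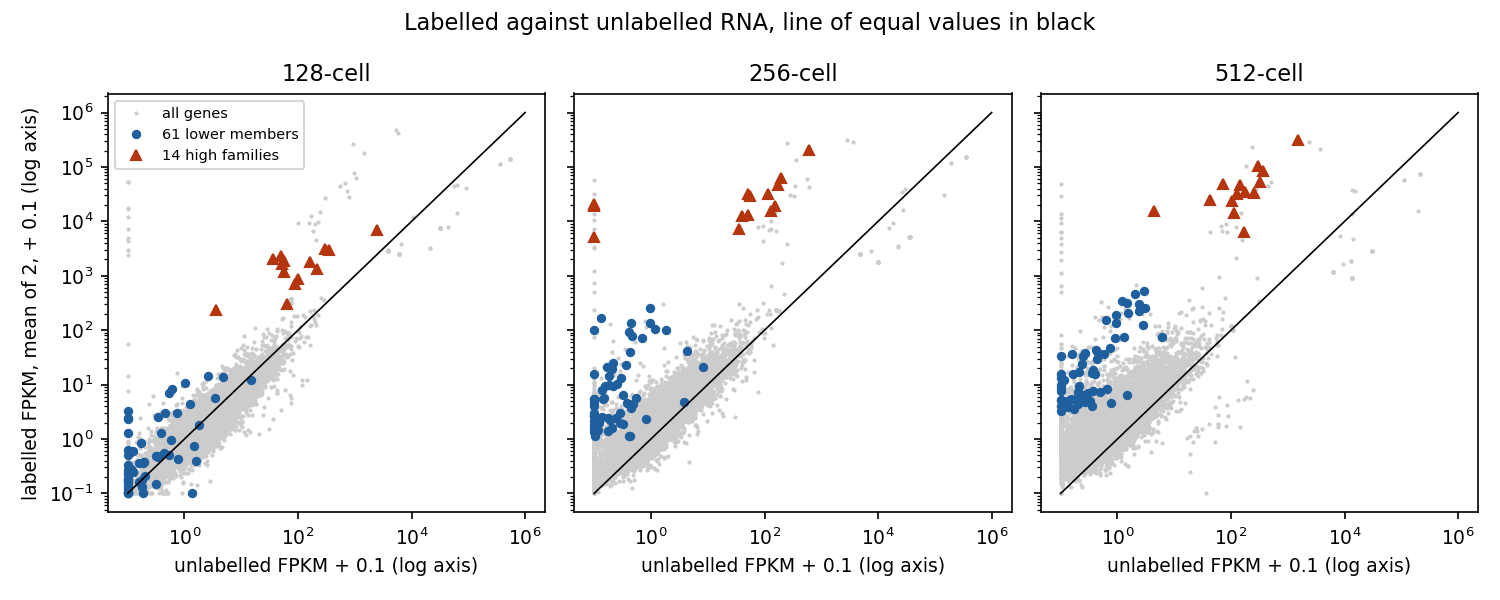
Mean FPKM + 0.1 of the 2 labelled libraries (vertical, log axis) against FPKM + 0.1 of the unlabelled library (horizontal, log axis) at each stage, for the 14 high families (triangles), the 61 lower members (blue circles) and all genes (grey), with the line of equal values. At 512-cell both labelled libraries of all 115 members are above the unlabelled one, and at 128-cell this holds for 88.

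At the 128-cell stage alone no member passed. By limma 0 of 115 members were called, where 0.078% of all tested genes (6 of 7697) were called higher. At an unadjusted p under 0.05 by limma, 35 members were higher and 0 lower, beside 72 genes higher and 134 lower over all tested genes; 32 of the 35 were high members, from 9 of the 14 families. Calls of members at this stage changed with the setting, also with replicate number as a block, as given with the dependence on processing below. The log2 difference of the families had a median of 3.45 and ran from 0.56 to 5.87. The lowest is ENSDARG00000086235, which was at -1.68 without labelled 128-cell replicate 2 and at 2.84 without replicate 1. The families' lowest limma adjusted p was 0.326.

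Read without a test, both labelled libraries were above the unlabelled one at 128-cell in 88 of 115 members, where 16.9% of all genes showed this order. It held in 52 of 54 high members (13 of 14 families) and in 36 of 61 lower ones. Among the recent gene models with a ratio under 0.2 it held in 14 of 50, and among early-onset genes with lower Ensembl numbers in 37 of 67; the difference between these sets was not tested. With size factors the count was 90 of 115, against 35.3% of all genes.

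At the 256-cell stage 52 of 115 members were higher in labelled RNA by limma, where 1.13% of all tested genes were. These were 32 high members, from 9 of the 14 families, and 20 lower members, or 37 of the 85 distinct sets of values. The log2 difference of the 11 families with an unlabelled value above 0 ran from 6.29 (ENSDARG00000086779) to 8.70 (ENSDARG00000086968). ENSDARG00000087412 was higher by 6.89 ± 0.92 (SE, 2 labelled libraries and 1 unlabelled), and ENSDARG00000095745 by 5.43 ± 0.84. ENSDARG00000095745 was under 1 FPKM in all 3 unlabelled libraries and passed the filter through labelled RNA alone. Its difference is therefore partly set by the choice. ENSDARG00000086235, whose labelled replicates were furthest apart, was at 6.33 ± 2.51 (limma adjusted p = 0.814). Both labelled libraries were above the unlabelled one in 113 of 115 members, where 53.2% of all genes were, and with size factors in 112, where 40.1% were. Among the recent gene models with a ratio under 0.2 this order held in 48 of 50, and among early-onset genes with lower Ensembl numbers in 66 of 67. Leaving out a labelled library changed the limma count for the members and for all tested genes alike, as given with the dependence on processing below.

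At the 512-cell stage 74 of 115 members were higher in labelled RNA by limma, where 3.72% of all tested genes were. These were 35 high members, from 11 of the 14 families, and 39 lower members, or 58 of the 85 distinct sets. ENSDARG00000087281 had the largest log2 difference of the families at 10.42 ± 1.81 (SE; 2 labelled libraries and 1 unlabelled; limma adjusted p = 0.00779). FOXB1 was higher by 2.94 ± 0.55, while WEE1 at 1.71 ± 0.70 and acyp2 at 2.22 ± 1.23 did not pass. FOXB1 and WEE1 are among the 15 members with a symbol that were under 1 FPKM in all 3 unlabelled libraries. These 15 passed the filter through labelled RNA alone, the RNA they were chosen by. Their differences and calls at this stage are therefore partly set by the choice. Of the 16 members with a symbol 5 passed at this stage and 3 at 256-cell. Both labelled libraries were above the unlabelled one in 115 of 115 members, where 73.5% of all genes were, and with size factors again in 115, where 44.7% were. Among the recent gene models with a ratio under 0.2 this held in 50 of 50, and among early-onset genes with lower Ensembl numbers in 67 of 67. The limma count changed when a labelled library was left out, for the members and for all tested genes alike, as given with the dependence on processing below.

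Other gene lists were read in the same fits. Of 27 early zygotic regulators listed with earlier results of these data known, 21 were tested outside the members, and 18 were higher in labelled RNA over the 3 stages by limma, 0 at 128-cell, 4 at 256-cell and 16 at 512-cell. Their median log2 difference over the 3 stages was 2.51 above that of all genes. Of 13 tested maternal mRNAs 2 were higher over the 3 stages (15.4%), with a median of 0.50. The shares of all tested genes called higher were 11.9% over the 3 stages, 0.078% at 128-cell, 1.13% at 256-cell and 3.72% at 512-cell, so the share of the maternal mRNAs was near that of all genes. All 13 genes of the mitochondrial genome were higher over the 3 stages, with 1 at 128-cell, 9 at 256-cell and 13 at 512-cell. Their median log2 difference over the 3 stages was 6.01 above that of all genes, beside 6.06 in the high members.

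The unlabelled libraries give a view of stage that the choice of members did not use. Unlabelled 512-cell RNA was above unlabelled 128-cell RNA in 79 of 115 members, where 6.56% of all genes showed this order. It held in 39 of 54 high members (10 of 14 families) and 40 of 61 lower members, and in 509 of the 8854 genes outside the members (5.75%). In the lower set the order was read near 0, as 46 of 61 were under 1 FPKM in all 3 unlabelled libraries. Of these 61 members, 21 were listed at 0 at 128-cell, where a gene can only tie or rise, against 3.43% of all genes. The share of all genes is therefore not a like comparison for the lower set. The median log2 ratio of 512-cell to 128-cell, with 0.1 FPKM added, was 0.49 in the members, 0.55 in the high and 0.44 in the lower set, and -1.41 over all genes. With 1 library per stage this has no replicate check, and p-values are not given.

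The same order was seen outside the members chosen for early onset. Among the recent gene models with a ratio under 0.2 it held in 35 of 50, with a median log2 ratio of 0.64, and among early-onset genes with lower Ensembl numbers in 30 of 67. The unlabelled libraries differ in overall level: their median FPKM was 0.836 at 512-cell and 2.52 at 128-cell. With size factors, which even this out, the order held in 90 of 115 members, where 51.9% of all genes showed it. Unlabelled 256-cell RNA was above unlabelled 128-cell RNA in 33 of 115 members as deposited, where 7.93% of all genes showed it, and in 80 of 115 with size factors, where 49.8% did.

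**Figure D5:**
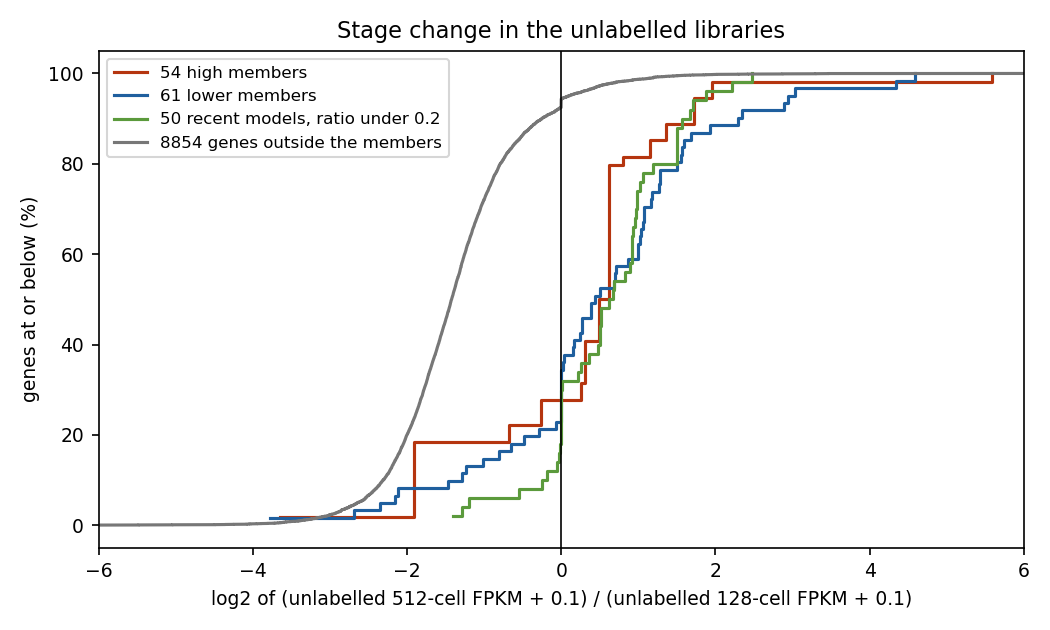
Cumulative share of genes (vertical, percent) by the log2 ratio of unlabelled 512-cell to unlabelled 128-cell FPKM, with 0.1 FPKM added to both (horizontal), for the 54 high members, the 61 lower members, the 50 recent gene models with a ratio under 0.2 and the 8854 genes outside the members. The medians are 0.55, 0.44 and 0.64 for the first 3 sets, and the grey curve of the other genes lies to their left with a median of -1.42.

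What the members were made of could be read in part. Of the 16 symbols 8 matched the RefSeq gene table, and no matched pair stood next to each other in it. A transcript with the same per-stage values was found for 109 of the 115 members, beside 5174 of 9436 genes (54.8%) in the whole per-stage table. The match was made by values alone, so the transcript may belong to another gene.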

How the data were processed

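RNA from 6 labelled and 3 unlabelled libraries of zebrafish embryos was analysed. The FPKM values were used as the authors deposited them: a gene table per library, and gene and transcript tables with 1 value per stage over labelled RNA. Per the submitters' processing notes, CASAVA 1.7, TopHat 1.3.3 and Cufflinks 2.0.2 were used with the genome build Zv9. The annotation version, the handling of reads with several matches, strand, and scaling between libraries are not given in the sources used here. No whole-read steps were found among low values, so depth is unknown and no counting interval is given.

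Members were chosen from the per-stage gene table by the thresholds given with the results. A gene was tested when 2 or more libraries reached 1 FPKM, which left 7697 of 8969. Tests were fitted with limma 3.58.1 in R 4.3.3 on log2(FPKM + 1), moderated along a trend in mean level. They are two-sided, p was adjusted by Benjamini and Hochberg's method across the 7697 genes, and calls were made under 0.05. The scripts were checked on simulated data. Over the 3 stages, 3 labelled stage values (means of 2 technical replicates) were set against 3 unlabelled libraries with stage as a block. At each stage, group means of all 9 libraries were fitted.

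Members, gene lists and tests were chosen with earlier results of these data known. The text names all families and the members with an ordinary symbol. It also names the members at 1 FPKM or more in an unlabelled library and those nearest each threshold. Some of the clone-based members and the remaining leading IDs were added after their values were seen. Alternatives changed the pseudocount, the filter, the scaling, the block and the libraries used. Sequence, protein and promoter features were not analysed here.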

Additional observations from a re-analysis of the deposited data

How the results depend on the processing

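Counts are of genes higher in labelled RNA by limma, all tested genes first and members after them. Over the 3 stages 913 genes and 110 members passed; with median-of-ratios size factors the counts were 455 and 53, with 1 total without the mitochondrial genome 1387 genes, and without the stage block 505 genes. Leaving out 1 labelled library gave 356 to 890 genes and 55 to 110 members, with 55 without labelled 128-cell replicate 2. At 128-cell 6 genes and 0 members passed; without the filter on low values it was 3 genes, and with the mitochondria-free total 28 genes and 2 members. Leaving out 1 library gave 11 to 21 genes there. At 256-cell 87 genes and 52 members passed; a pseudocount of 0.1 gave 157 genes, and leaving out 1 library 112 to 241 genes and 71 to 82 members. At 512-cell 286 genes and 74 members passed; a pseudocount of 0.1 gave 472 genes, size factors 685, the mitochondria-free total 136, and leaving out 1 library 236 to 632 genes and 91 to 114 members. The cause of these shifts was not tested.

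Replicate numbers were checked for pairing: across 7438 genes, deviations of equally numbered libraries from their stage mean correlated by 0.739, 0.762 and 0.660 between stages. What equally numbered libraries share is not given in the labels. The labels give the unlabelled libraries no number that ties them to a labelled one; all 3 were set to number 1, so the block sets them against the level of replicate 1. With replicate number as a block under this assignment, 783 genes and 47 members passed at 128-cell, 3511 and 111 at 256-cell, and 5100 and 115 at 512-cell.

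Of 570 values of 30 named genes and families under the alternatives, 567 kept their direction and 503 their call; 52 lost it and 12 gained it. The reversals were acyp2 over the 3 stages, at -0.20 without labelled 512-cell replicate 1 and 0.72 without replicate 2, and ENSDARG00000086235 at 128-cell. That family was at -1.68 without labelled 128-cell replicate 2, 2.84 without replicate 1 and -2.13 with the replicate block. Depth is unknown, so values near 0 and zeros listed in unlabelled libraries set no detection limit.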
